A study of Mus musculus with 6 samples.

Results

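Claudins, connexins and the proteins of the desmosome join neighbouring epithelial cells, and their genes were compared here between 2 sorted cell populations of C57BL/6 mice. ThymusEC were epithelial cells of the thymic medulla, sorted as Epcam+ UEA1+ CD45- and unstained by Fluorogold, a dye used to leave out dead cells. ThyroidEC were thyroid cells sorted as Epcam+ CD45- and likewise unstained by Fluorogold. Each group had 3 single-colour Agilent arrays. ThymusEC replicates 1 and 2 each pooled 6 thymi and replicate 3 pooled 2, and each ThyroidEC replicate pooled 20 thyroids. The labels name no sort against endothelial cells. The genes were all non-control probes whose name in the array files is that of a claudin (Cldn), a connexin (Gja, Gjb, Gjc, Gjd or Gje), a desmoglein (Dsg), a desmocollin (Dsc), a plakophilin (Pkp) or a zonula occludens protein (Tjp), or is Ocln, Cgn, F11r, Jup or Dsp. This gave 60 genes with 89 of the 41174 probes: 21 claudins, 18 connexins, 15 desmosomal genes and 6 genes of the tight junction plaque and membrane. Several connexins have been renamed since the array was designed, and present names are used: Gjc1 stands in the files as Gja7, Gjc3 as Gje1, Gjd2 as Gja9 and Gjd3 as Gjc1.

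Tight junctions seal the space between epithelial cells, and the mix of claudins in their strands sets which ions pass. Connexins assemble in groups of identical or different members into channels that dock between cells and let small molecules through. Desmosomes rivet cells together: the cadherins of the desmoglein and desmocollin families span the gap, plakoglobin (Jup) and the plakophilins bind their tails, and desmoplakin (Dsp) ties this plaque to keratin filaments. Medullary thymic epithelial cells are known to transcribe many genes otherwise restricted to other tissues, and thyroid follicular cells form a single polarized layer around a lumen.

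Levels are log2 of the processed signal minus that of the array's 75th percentile, so 0 is the signal that 75 percent of spots do not exceed, and they compare groups for 1 gene, not genes with each other. A probe counts as above background where the scanner software flagged it so, and a gene was tested where every array of ThymusEC, of ThyroidEC or of both carried that flag. All differences are ThymusEC minus ThyroidEC, and a gene was called where limma's p, adjusted by the Benjamini-Hochberg method over all 21378 tested genes, was under 0.05. Signal at the 75th percentile was 675.9 to 771.6 on ThymusEC arrays and 476 to 805 on ThyroidEC arrays, no spot was saturated, and 65.3% to 81.0% of probes were above background. The defining genes of both tissues went with the labels. Aire, the regulator of medullary cells, had a level of 6.04 ± 0.16 in ThymusEC and -6.04 ± 0.45 in ThyroidEC (SD, n = 3 each), where 2 of 3 arrays were above background. Tg, the precursor of thyroid hormone, had -1.83 ± 0.09 in ThymusEC and 8.95 ± 0.24 in ThyroidEC, and Epcam, the marker used in both sorts, had 2.87 ± 0.14 in ThymusEC and 1.63 ± 0.34 in ThyroidEC. Markers of other cells differed too. All 15 endothelial markers were higher in ThyroidEC, with a summed signal of 6.72 to 7.06 times the 75th percentile in ThymusEC and 813 to 1169 times in ThyroidEC, and all 15 were above background on every array. All 16 blood cell markers were higher in ThymusEC (sums of 95.4 to 104.6 in ThymusEC and 1.58 to 2.36 in ThyroidEC), and 5 of them (Cd3g, Cd8a, Rag1, Ms4a1 and Itgam) were above background on no ThyroidEC array. Ptprc, which encodes the CD45 protein sorted against, had -0.95 ± 0.46 in ThymusEC and -4.97 ± 0.19 in ThyroidEC. In sorted bulk samples, fewer cells of a type and less RNA per cell cannot be told apart.

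**Figure D1:**
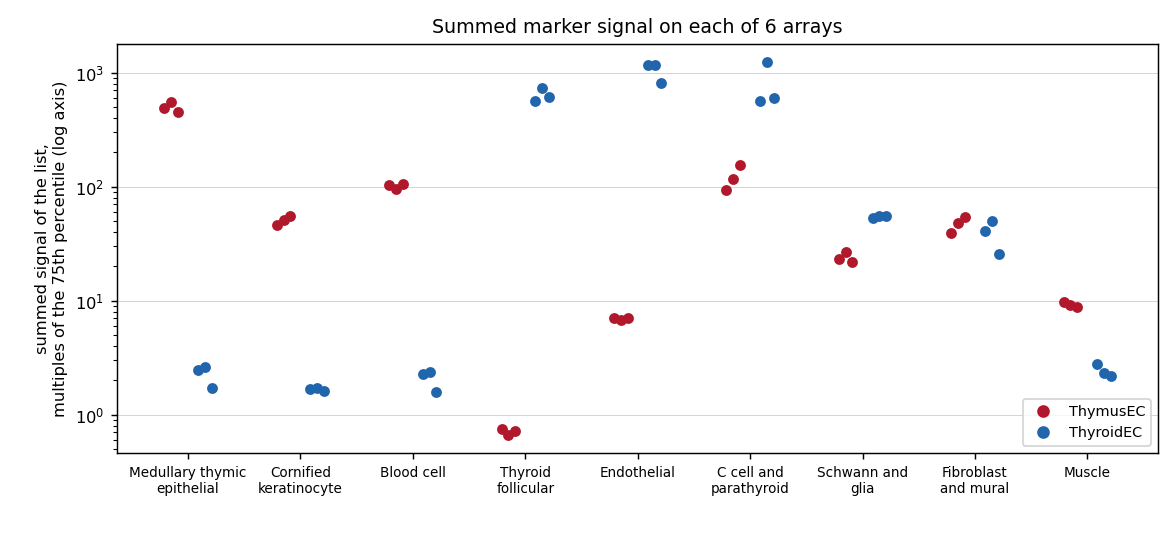
Summed signal of 9 cell type marker lists on each array, in multiples of the array's 75th percentile on a log axis, with ThymusEC in red left of ThyroidEC in blue. Endothelial sums lie at 6.72 to 7.06 on ThymusEC arrays and 813 to 1169 on ThyroidEC arrays, and cornified keratinocyte sums at 45.7 to 55.4 on ThymusEC arrays and 1.60 to 1.70 on ThyroidEC arrays.

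Of the 60 junction genes, 53 were tested. In ThymusEC 29 were higher, in ThyroidEC 17 were higher, and 7 were not called. Over all tested genes, 39.2% were higher in ThymusEC and 30.6% in ThyroidEC, 69.8% together. The median difference was 0.69 over the 53 genes, or 0.38 with dim groups set to their lower bounds, against 0.10 over all genes tested. The families differed in their counts. Of the 15 desmosomal genes, 12 were higher in ThymusEC and 3 in ThyroidEC, with a median of 2.98, or 2.25 at the lower bounds. Of 18 tested claudins, 9 were higher in ThymusEC, 6 in ThyroidEC and 3 not called, with a median of 0.51, or 0.42 at the lower bounds. Of 14 tested connexins, 6 were higher in each group and 2 not called, with a median of -0.27. The 6 tight junction plaque and membrane genes split evenly into 2 higher in ThymusEC, 2 higher in ThyroidEC and 2 not called. Part of the counts lies in genes without a measured level in the thyroid: 12 were above background on all ThymusEC arrays and on no ThyroidEC array, and 0 the other way round, while over all tested genes these shares were 10.8% and 0.734%. All 53 tested genes were above background on all 3 ThymusEC arrays. Among the 37 genes above background on all 6 arrays, 13 were higher in ThymusEC and 17 in ThyroidEC, with a median of -0.28, against 28.5% and 36.4% of all genes so measured and their median of -0.10. By family, the genes measured on all 6 arrays gave other counts: 5 desmosomal genes were higher in ThymusEC and 3 in ThyroidEC (median 2.04), 4 claudins in ThymusEC and 6 in ThyroidEC (median -0.32), and 2 connexins in ThymusEC and 6 in ThyroidEC (median -0.47). The groups' values did not overlap in 46 of the 53 genes, against 76.5% of all tested genes.

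**Figure D2:**
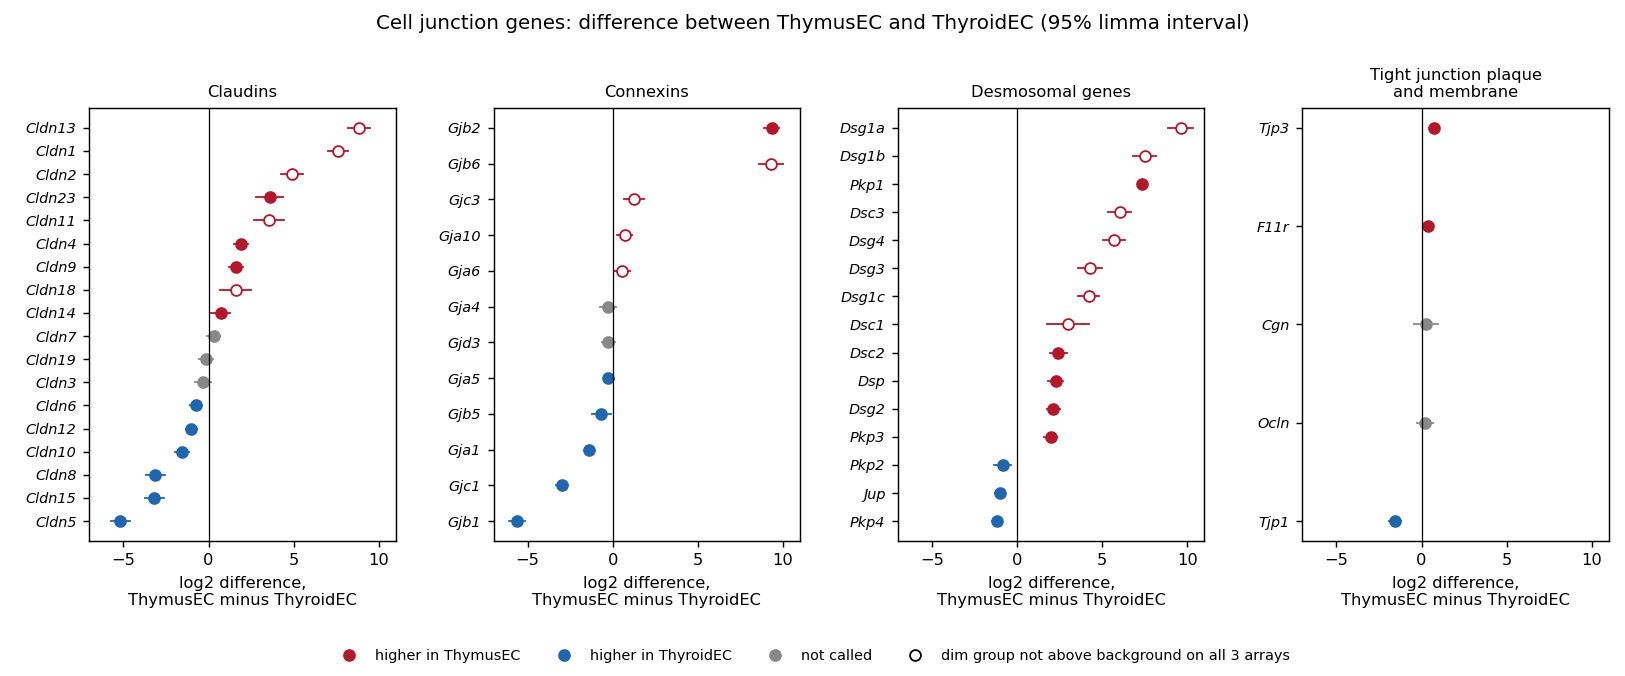
Difference between ThymusEC and ThyroidEC (log2, ThymusEC minus ThyroidEC) for 50 tested junction genes by family, with limma's 95% interval. Open circles mark genes whose dimmer group was not above background on all 3 arrays. Desmosomal genes reach from -1.17 to 9.60, with 12 of 15 above 0, and the connexins hold both Gjb2 at 9.32 and Gjb1 at -5.62.

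ThymusEC arrays 1 to 3 and ThyroidEC array 1 lay on slide 1, which was scanned first, and ThyroidEC arrays 2 and 3 on slide 2. With the slide as a block, 28 junction genes were higher in ThymusEC and 11 in ThyroidEC, against 36% and 26.1% of all genes. Slide 2 holds ThyroidEC arrays alone, so this contrast rests on ThyroidEC array 1, and a fit of slide 1 alone gives the same differences by construction. In that fit the spread comes from the ThymusEC arrays, and the lone ThyroidEC array is assumed to vary like them; 30 junction genes were then higher in ThymusEC and 12 in ThyroidEC, against 38.5% and 28.5% of all genes. With the block, 12 desmosomal genes were higher in ThymusEC and 2 in ThyroidEC, 9 claudins were higher in ThymusEC and 5 in ThyroidEC, and 5 connexins were higher in ThymusEC and 3 in ThyroidEC.

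Of the 8 desmosomal genes above background on all 6 arrays, 5 were higher in ThymusEC and 3 in ThyroidEC. Pkp1, the plakophilin of stratified epithelia, had 4.54, 4.46 and 4.61 in ThymusEC, against -2.75, -2.95 and -2.77 in ThyroidEC. It was 164-fold higher in ThymusEC (log2 difference 7.36, SE 0.11, limma adjusted p = 2.25e-07), and 93.1-fold with normexp background correction. The SD between arrays was 0.07 in ThymusEC and 0.11 in ThyroidEC. Dsp had 4.45, 4.32 and 4.44 in ThymusEC and 1.79, 2.39 and 2.28 in ThyroidEC, 4.76-fold higher in ThymusEC (SE 0.18 on the log2 scale, limma adjusted p = 3.69e-05). Its 4 tested probes gave differences of 2.25 to 2.90. Pkp3, the plakophilin with the broadest epithelial use, had 3.84, 3.87 and 3.75 in ThymusEC and 1.56, 1.85 and 2.12 in ThyroidEC, 3.94-fold higher in ThymusEC (limma adjusted p = 4.35e-05). For these plaque genes the lowest ThymusEC array was above the highest ThyroidEC array.

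The desmosomal cadherins divided by where they could be measured. Dsg2 and Dsc2, the pair known from simple as well as stratified epithelia, were above background on all 6 arrays. Dsg2 had 2.78, 2.67 and 2.68 in ThymusEC and 0.28, 0.76 and 0.76 in ThyroidEC, and was 4.31-fold higher in ThymusEC (SE 0.16 on the log2 scale, limma adjusted p = 3.09e-05). Its 5 tested probes gave differences of 1.86 to 2.92. Dsc2 had 0.55, 0.61 and 0.43 in ThymusEC and -2.31, -1.80 and -1.56 in ThyroidEC, and was 5.35-fold higher in ThymusEC (limma adjusted p = 5.02e-05). The other 7 cadherins, known from epidermis and other stratified epithelia, were above background on all ThymusEC arrays and on no ThyroidEC array, so only lower bounds are given. These bounds set the ThymusEC mean against the higher, per ThyroidEC array, of the probe's own signal and the lowest signal flagged as above background. The limma p beside a bound, here and below, belongs to the fitted difference and does not test the bound. That fit uses ThyroidEC signals as measured, also those below the lowest flagged signal. Genes given a bound entered the test only through ThymusEC.

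Dsg1a had 1.34, 1.43 and 1.33 in ThymusEC and was at least 173-fold higher there (limma adjusted p = 9.11e-07). Dsg1b had -0.41, -0.51 and -0.27 in ThymusEC and was at least 51-fold higher (limma adjusted p = 1.57e-06). Dsg1a, Dsg1b and Dsg1c are near-identical copies in the mouse, so signal of these probes may come from any of the 3. Dsc3, the desmocollin of the basal epidermis, had -1.94, -1.92 and -1.98 in ThymusEC and was at least 17.4-fold higher (limma adjusted p = 3.95e-06). Dsg3, the main target of autoantibodies in pemphigus vulgaris, had -3.87, -3.76 and -3.53 in ThymusEC and was at least 5.10-fold higher (limma adjusted p = 1.96e-05). The remaining bounds were 12.6-fold for Dsg4, known from the hair follicle, 4.29-fold for Dsg1c and 2.79-fold for Dsc1, an upper epidermal desmocollin whose call was lost with normexp background correction (limma adjusted p = 0.121) and whose fitted log2 difference was 2.98, or 3.60 without ThyroidEC array 2. The bounds hold for the scanner software's background correction only. With normexp the fitted folds were 31.6 for Dsg1a, 9.81 for Dsg1b, 3.72 for Dsc3, 2.96 for Dsg4, 1.66 for Dsg3 (limma adjusted p = 0.00734) and 1.55 for Dsg1c (limma adjusted p = 0.0107).

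**Figure D3:**
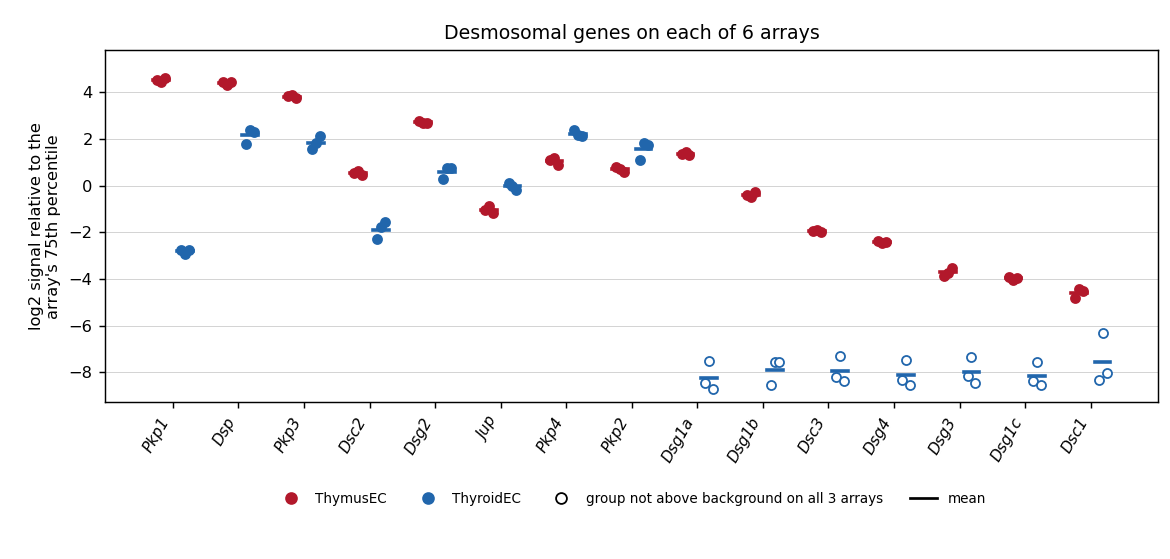
Level of the 15 desmosomal genes on each of the 6 arrays (log2 signal relative to the array's 75th percentile), with ThymusEC in red left of ThyroidEC in blue and a line at each mean. Open circles mark groups not above background on all 3 arrays. The 7 genes at the right have no ThyroidEC array above background, and Jup, Pkp4 and Pkp2 are the 3 with higher ThyroidEC values.

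The 3 desmosomal genes that were higher in ThyroidEC all encode armadillo-repeat proteins of the plaque. So do Pkp1 and Pkp3, which were higher in ThymusEC (differences of 7.36 and 1.98). Jup, plakoglobin, which also serves adherens junctions, had -1.06, -0.87 and -1.17 in ThymusEC and 0.13, -0.03 and -0.17 in ThyroidEC, a difference of -1.01 (SE 0.13, limma adjusted p = 0.0005). Pkp4, a relative of p120 catenin found at adherens junctions as well, had 1.11, 1.17 and 0.89 in ThymusEC and 2.37, 2.17 and 2.14 in ThyroidEC, a difference of -1.17 (SE 0.13, limma adjusted p = 0.000188). Pkp2, the plakophilin of simple epithelia and heart, had 0.81, 0.69 and 0.59 in ThymusEC and 1.10, 1.81 and 1.73 in ThyroidEC, a difference of -0.85 (limma adjusted p = 0.00862). The groups did not overlap for any of the 3. ThyroidEC array 1 was the lowest of its group for Pkp2, and with the slide as a block its difference was -0.41 (limma adjusted p = 0.0593).

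Of 15 partners of the desmosome and of cornified cell contacts, 11 were higher in ThymusEC and 4 in ThyroidEC, with a median difference of 1.95. The largest were the basal keratins Krt14 (6.96, limma adjusted p = 6.76e-07) and Krt5 (6.60, limma adjusted p = 1.1e-06), which polymerize into the filaments that desmoplakin anchors. The 4 higher in ThyroidEC included the tetraspanin Cd151 (-2.17, limma adjusted p = 1.26e-05) and the plakin periplakin, Ppl (-0.74, limma adjusted p = 0.00216). Markers of cornified keratinocytes moved with the stratified desmosomal genes: 10 of 11 tested were higher in ThymusEC and 1 not called, their summed signal was 45.7 to 55.4 in ThymusEC and 1.60 to 1.70 in ThyroidEC, and Ivl, Krtdap, Calm4 and Sprr1b were above background on no ThyroidEC array. Their part in the result was not tested.

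Among claudins, Cldn13 and Cldn1 were measured only in the thymic cells, while Cldn5, Cldn15 and Cldn8 were far higher in the thyroid cells. Cldn13, a claudin of mice that humans lack, had 0.89, 0.91 and 1.06 in ThymusEC and was at least 130-fold higher there (limma adjusted p = 8.45e-07). Cldn1, the claudin required for the skin's water barrier, had -0.67, -0.20 and -0.43 in ThymusEC and was at least 49.8-fold higher (limma adjusted p = 9.9e-07). Neither was above background on a ThyroidEC array, and with normexp background correction the fitted folds were 24.1 for Cldn13 and 8.57 for Cldn1. Cldn23, a less studied family member, had 0.10, 0.33 and 0.13 in ThymusEC and -4.20, -3.11 and -2.93 in ThyroidEC, 12.1-fold higher in ThymusEC (limma adjusted p = 7.79e-05), 5.76-fold with normexp and 20.9-fold with the slide as a block. Cldn4, known for tightening epithelia to sodium and as a marker of medullary thymic cells, had 2.03, 2.17 and 2.16 in ThymusEC and 0.56, 0.09 and -0.05 in ThyroidEC, 3.79-fold higher in ThymusEC (SE 0.18 on the log2 scale, limma adjusted p = 8.01e-05). Cldn9 had -0.56, -0.61 and -0.96 in ThymusEC and -2.55, -2.25 and -2.19 in ThyroidEC, 3.07-fold higher in ThymusEC (limma adjusted p = 0.000122). For all 5 genes every ThymusEC value lay above every ThyroidEC value.

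Another 4 claudins were higher in ThymusEC. Cldn2, the cation pore of leaky epithelia, and Cldn11, known from myelin and testis, were each above background on 1 ThyroidEC array. Cldn2 was at least 14.9-fold higher in ThymusEC. Cldn11 was 11.8-fold higher there as fitted (SE 0.37 on the log2 scale, limma adjusted p = 0.000153), which is not a lower bound. Its signal on each ThyroidEC array was above that array's lowest signal flagged as above background. With normexp the fitted folds were 3.42 for Cldn2 and 2.81 for Cldn11. Cldn18, known from lung and stomach, was at least 1.45-fold higher, with no ThyroidEC array above background, and lost its call with normexp and with quantile normalization. Cldn14 had -3.47, -3.59 and -3.29 in ThymusEC and -4.24, -3.69 and -4.53 in ThyroidEC, a difference of 0.71 (limma adjusted p = 0.027) that lost its call under 10 of 19 alternatives and turned to -0.10 with quantile normalization.

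In the other direction, Cldn5, the claudin of endothelial tight junctions, had -3.14, -3.05 and -2.61 in ThymusEC and 2.60, 2.23 and 1.89 in ThyroidEC. It was 36.1-fold higher in ThyroidEC (log2 difference -5.17, SE 0.22, limma adjusted p = 2.88e-06), or 22.2-fold with normexp, and no values overlapped. The endothelial markers moved with it: Kdr, the VEGF receptor of endothelial cells, differed by -10.8, Cdh5, the endothelial cadherin, by -7.92 and Pecam1, an endothelial adhesion protein, by -7.28, each with a limma adjusted p of at most 4.26e-07, and all 15 markers of the list were higher in ThyroidEC, with the sums given above. Their part in the Cldn5 difference was not tested. Cldn15, a cation pore known from the intestine, had -2.55, -2.49 and -2.13 in ThymusEC and 1.24, 0.78 and 0.40 in ThyroidEC, 9.17-fold higher in ThyroidEC (limma adjusted p = 2.81e-05). Cldn8, known from the distal nephron, had -2.14, -2.24 and -2.11 in ThymusEC and 0.58, 0.86 and 1.47 in ThyroidEC, 8.76-fold higher in ThyroidEC (limma adjusted p = 2.73e-05). Cldn10, known from kidney and exocrine glands, had -1.90, -2.28 and -1.94 in ThymusEC and -0.71, -0.50 and -0.22 in ThyroidEC, 2.96-fold higher in ThyroidEC (limma adjusted p = 0.000205). The group values of these 3 were apart as well. Cldn12 (-1.01) and Cldn6 (-0.74) were also higher in ThyroidEC, and Cldn6 lost its call with the slide as a block (limma adjusted p = 0.0562).

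The claudins most general to epithelia were not called. Cldn7 had 4.72, 4.62 and 4.62 in ThymusEC and 4.07, 4.59 and 4.38 in ThyroidEC (difference 0.31, 95% interval -0.06 to 0.67, limma adjusted p = 0.114). Cldn3, with Cldn4 a marker of medullary thymic cells, had 2.41, 2.50 and 2.37 in ThymusEC and 2.39, 2.76 and 3.10 in ThyroidEC (difference -0.32, 95% interval -0.77 to 0.12, limma adjusted p = 0.164). Both depend on the scaling: median centring shifts all genes by -0.53, which put Cldn3 at -0.86 (limma adjusted p = 0.00375) and Cldn7 at -0.23, while Cldn7 was called at 0.59 with the slide as a block (limma adjusted p = 0.0179). Cldn19, known from kidney and Schwann cells, differed by -0.12 (limma adjusted p = 0.561). Cldn16, the magnesium channel former of the kidney, Cldn17 and Cldn22 were above background on no array of either group.

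The plaque and membrane proteins of the tight junction differed in both directions. Tjp1, the scaffold ZO-1, had -1.59, -1.67 and -1.81 in ThymusEC and -0.36, -0.02 and -0.01 in ThyroidEC, 2.96-fold higher in ThyroidEC (limma adjusted p = 6.86e-05). Tjp3, the scaffold ZO-3, known mainly from epithelia, had 2.71, 2.61 and 2.73 in ThymusEC and 1.83, 1.98 and 2.09 in ThyroidEC, 1.64-fold higher in ThymusEC (limma adjusted p = 0.00127), and lost its call with median centring (0.19). Neither gene's groups overlapped. F11r, the junctional adhesion molecule JAM-A, had 4.96, 4.86 and 4.97 in ThymusEC and 4.41, 4.68 and 4.55 in ThyroidEC, a difference of 0.38 (limma adjusted p = 0.0205) that turned to -0.15 with median centring. Ocln, occludin, had -1.75, -1.95 and -2.32 in ThymusEC and -2.46, -2.12 and -1.99 in ThyroidEC (0.18, limma adjusted p = 0.427). A second Ocln probe, above background on 2 ThyroidEC arrays, gave 1.43. It was called higher in ThymusEC (limma adjusted p over probes = 0.0103), and its values did not overlap between the groups. Cgn, cingulin, had -0.76, -1.21 and -0.84 in ThymusEC and -1.34, -1.69 and -0.57 in ThyroidEC (0.26, limma adjusted p = 0.458). At their brightest probes Ocln and Cgn overlapped between the groups.

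Of 23 other tight junction, junctional adhesion and polarity proteins, 11 were higher in ThymusEC, 7 in ThyroidEC and 5 not called, with a median of 0.31. Largest were Jam2 (-7.09, limma adjusted p = 1.08e-06) and Jam3 (-4.80, limma adjusted p = 5.97e-07), adhesion molecules known from endothelium as well as epithelium, both higher in ThyroidEC beside the endothelial markers. Magi2, a scaffold, was higher in ThymusEC (1.95, limma adjusted p = 3.14e-05), as was Ildr2, a relative of the tricellular junction protein angulin, at least 1.68-fold (limma adjusted p = 0.0351).

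Connexins showed opposed members rather than a shared direction. Gjb2 (Cx26) and Gjb6 (Cx30), which form channels together in the cochlea and skin and whose loss causes deafness, were high in ThymusEC. Gjb2 had 4.16, 4.13 and 4.28 in ThymusEC, against -5.44, -4.77 and -5.19 in ThyroidEC. It was 640-fold higher in ThymusEC (log2 difference 9.32, SE 0.18, limma adjusted p = 2.76e-07), the largest difference among junction genes above background on all 6 arrays. Gjb6 had 1.30, 1.49 and 1.64 in ThymusEC, was above background on no ThyroidEC array, and was at least 187-fold higher in ThymusEC (limma adjusted p = 9.12e-07). The second tested probe of each gene was above background on no ThyroidEC array and gave at least 49.7-fold for Gjb2 and 33.6-fold for Gjb6. With normexp the folds were 153 for Gjb2 and 26.3 for Gjb6.

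Gjb1 (Cx32), the connexin of liver and Schwann cells and known from thyroid follicular cells, had the largest difference towards ThyroidEC among the tested connexins. It had -5.49, -5.41 and -5.71 in ThymusEC and -0.30, 0.14 and 0.42 in ThyroidEC, 49.2-fold higher in ThyroidEC (log2 difference -5.62, SE 0.20, limma adjusted p = 1.32e-06), 11.6-fold with normexp and 80.5-fold with quantile normalization. Beside it, 3 of 8 Schwann cell and glia markers were higher in ThyroidEC, 2 in ThymusEC and 3 not called, with sums of 21.8 to 26.7 in ThymusEC and 53.1 to 55.8 in ThyroidEC. S100b (-5.02) and Pmp22 (-4.17) had the largest differences towards ThyroidEC and Foxd3 (2.91) and Mbp (1.91) towards ThymusEC. Sox10, the defining glial regulator, had -2.53 ± 0.11 in ThymusEC and -2.50 ± 0.71 in ThyroidEC (difference -0.03, limma adjusted p = 0.946). Of 10 thyroid follicular markers, 9 were higher in ThyroidEC (sums of 0.67 to 0.76 in ThymusEC and 564 to 733 in ThyroidEC), with Tshr and Pax8 above background on no ThymusEC array. The part of either list in the Gjb1 result was not tested.

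Gjc1 (Cx45), known from vascular and cardiac cells, had -2.29, -2.24 and -2.63 in ThymusEC and 0.67, 0.66 and 0.42 in ThyroidEC, 7.84-fold higher in ThyroidEC (limma adjusted p = 5.05e-06). Gja1 (Cx43), the most widespread connexin, had -1.01, -0.78 and -0.93 in ThymusEC and 0.64, 0.50 and 0.33 in ThyroidEC, 2.63-fold higher in ThyroidEC (limma adjusted p = 8.04e-05). Both were apart between the groups by more than their spread. The connexins of arterial endothelium, Gja4 (Cx37) and Gja5 (Cx40), differed by -0.27 and -0.31 at their brightest probes. A second Gja5 probe gave -1.99. The endothelial sums are given above. Gja4 had 1.91, 2.19 and 2.05 in ThymusEC and 2.62, 2.40 and 1.94 in ThyroidEC (difference -0.27, 95% interval -0.74 to 0.19, limma adjusted p = 0.245; with median centring -0.81, limma adjusted p = 0.00885). Gja5 had -2.16, -2.17 and -2.22 in ThymusEC and -1.86, -1.83 and -1.93 in ThyroidEC at its brightest probe. The difference was -0.31 (limma adjusted p = 0.0266), and its call was lost with the slide as a block. The second probe, above background on all 6 arrays, had -3.10, -3.24 and -2.82 in ThymusEC and -0.74, -0.88 and -1.58 in ThyroidEC. It gave -1.99 (limma adjusted p over probes = 0.000305). Of the gene's 4 probes, the others gave -0.51 and 0.10. Without 1 ThymusEC array at a time the gene's difference was -2.10 to -1.89, because the second probe then became the brightest and stood for the gene. With normexp the gene's difference was -1.52.

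Gjb5 (Cx31.1), known from skin, had -2.86, -3.16 and -2.93 in ThymusEC and -2.79, -2.24 and -1.90 in ThyroidEC, a difference of -0.67 (limma adjusted p = 0.0391). It lost its call under 9 of 19 alternatives, among them the slide as a block (limma adjusted p = 0.463). Gjc3 (Cx29), known from Schwann cells, had -4.94, -5.01 and -5.14 in ThymusEC, was above background on no ThyroidEC array and was at least 2.06-fold higher in ThymusEC (limma adjusted p = 0.00349), but had a fitted fold of 1.08 with normexp and turned to -0.078 with quantile normalization. Gja10 (Cx57, known from the retina) and Gja6 (Cx33, known from testis) were above background on 1 ThyroidEC array and called higher in ThymusEC at bounds of at least 1.24-fold and 1.26-fold, and both were called the other way with quantile normalization (-0.66 and -0.83). Gjd3 was not called (-0.28, limma adjusted p = 0.168).

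Another 4 connexins were not tested, and none of these was above background on a ThyroidEC array. Gja3, known from the lens, was above background on no array, and Gjd2, known from neurons, on 1 ThymusEC array. Of 5 tested pannexins and gap junction partners, Panx1, which forms channels to the outside of the cell (1.78, limma adjusted p = 2.03e-05), and Cnst (0.58, limma adjusted p = 0.00591) were higher in ThymusEC, Ccn3, a secreted protein that binds connexins (-1.80, limma adjusted p = 0.000149), and Csnk1d (-0.32, limma adjusted p = 0.034) in ThyroidEC, and 1 was not called.

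**Figure D4:**
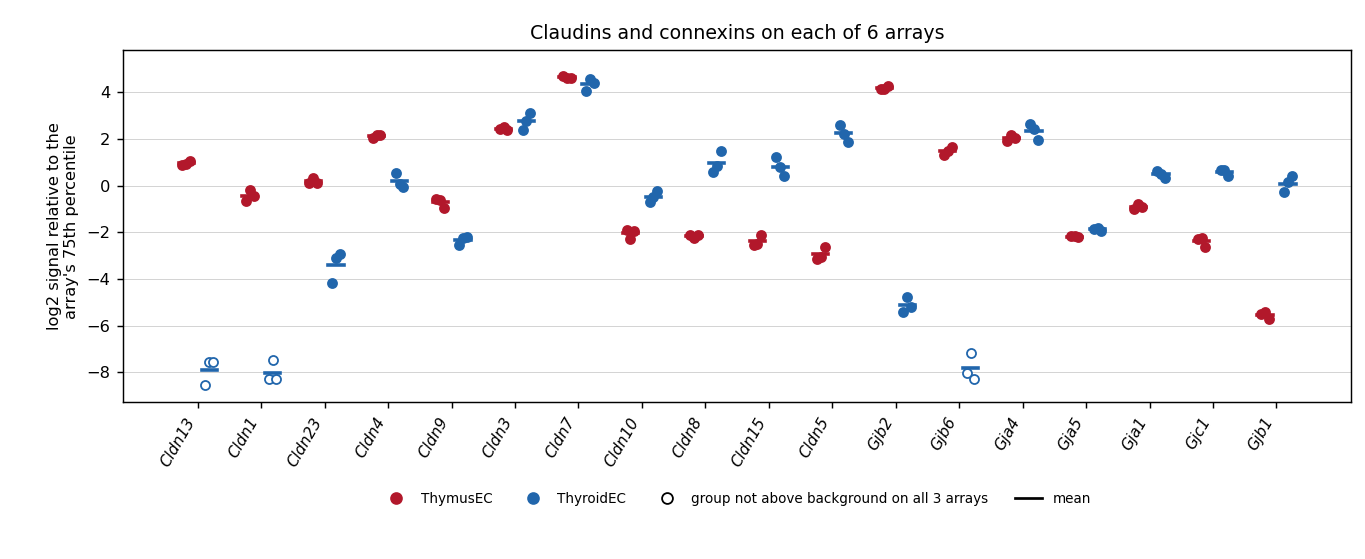
Level of the claudins and connexins named most on each of the 6 arrays (log2 signal relative to the array's 75th percentile), with ThymusEC in red left of ThyroidEC in blue and a line at each mean. Open circles mark groups not above background on all 3 arrays. Gjb2 and Gjb6 are high in ThymusEC, Cldn5 and Gjb1 are high in ThyroidEC, and the values of Cldn3 and Gja4 overlap between the groups.

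Cldn4, above background on all 6 arrays, is known as a marker of medullary thymic cells. Cldn5 was the claudin with the largest difference towards ThyroidEC. Promoter sequences are shown for these claudins and for the adjacent genes Gjb2 and Gjb6, which were both high in ThymusEC. They are RefSeq sequences of GRCm38.p6, each 250 bases before to 50 after the annotated start, written 5′ to 3′ on the gene's strand. Of the 60 genes, 37 matched a window and had 52 windows. Capitals mark matches on either strand to GGGCGG, the GC box, to TATAAA, the TATA box, or to AACCNGTT, a core bound by grainyhead-like factors of epithelia. These 3 motifs did not overlap where printed.
Gjb2, chr14:57104653-57104952, minus strand: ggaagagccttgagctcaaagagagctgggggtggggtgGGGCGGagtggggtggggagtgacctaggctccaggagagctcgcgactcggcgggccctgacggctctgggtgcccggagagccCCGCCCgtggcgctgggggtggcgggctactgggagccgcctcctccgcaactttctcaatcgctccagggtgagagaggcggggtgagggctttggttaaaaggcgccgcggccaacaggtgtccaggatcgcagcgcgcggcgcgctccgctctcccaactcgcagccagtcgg
Gjb6, chr14:57133562-57133861, minus strand: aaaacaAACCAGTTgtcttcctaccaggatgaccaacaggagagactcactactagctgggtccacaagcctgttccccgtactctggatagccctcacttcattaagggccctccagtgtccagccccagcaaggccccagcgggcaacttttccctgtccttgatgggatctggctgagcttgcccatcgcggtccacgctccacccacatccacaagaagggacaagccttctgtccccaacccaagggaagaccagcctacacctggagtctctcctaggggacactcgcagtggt
Cldn4, chr5:134946885-134947184, minus strand: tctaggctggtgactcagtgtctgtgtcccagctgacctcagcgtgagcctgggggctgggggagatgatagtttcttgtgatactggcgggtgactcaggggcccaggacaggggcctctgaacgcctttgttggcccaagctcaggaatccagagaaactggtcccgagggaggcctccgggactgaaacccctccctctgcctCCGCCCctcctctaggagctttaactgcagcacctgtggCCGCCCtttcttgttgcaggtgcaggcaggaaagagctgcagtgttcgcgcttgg
Cldn5, chr16:18776597-18776896, plus strand: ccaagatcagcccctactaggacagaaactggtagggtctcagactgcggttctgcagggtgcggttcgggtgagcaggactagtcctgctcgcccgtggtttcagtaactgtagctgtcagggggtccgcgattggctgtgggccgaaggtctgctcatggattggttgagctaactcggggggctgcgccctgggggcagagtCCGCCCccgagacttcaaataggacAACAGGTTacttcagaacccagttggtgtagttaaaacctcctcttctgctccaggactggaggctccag
Gjb2 and Cldn4 each held 2 GC boxes, Cldn5 held 1, and Gjb6 held none. Gjb6 and Cldn5, which differ in opposite directions, each held 1 match to AACCNGTT. Of all 32851 promoter windows, 35.7% held GGGCGG, 13.6% TATAAA and 2.09% AACCNGTT, against 51.9%, 9.62% and 5.77% of the 52 windows of junction genes. Among windows of genes higher in ThymusEC, 6 of 18 held GGGCGG, against 11 of 19 of genes higher in ThyroidEC. These windows came from 14 of the 29 genes higher in ThymusEC and 12 of the 17 higher in ThyroidEC. Some genes had several windows, and the desmosomal cadherins had none. These are matches of letters within the window and say nothing of binding.

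Many of these genes lie next to each other. In the array files' coordinates (build mm8), 23 of the genes reported here fell into 7 runs in which their consecutive probes lay at most 200 kb apart, a distance chosen after the values were known. The longest run, on chromosome 18, held 9 desmosomal cadherins over 640 kb. Their order was Dsc3, Dsc2, Dsc1, Dsg1c, Dsg1a, Dsg1b, Dsg4, Dsg3 and Dsg2, and all 9 were higher in ThymusEC. Of these, 7 were above background on no ThyroidEC array and entered the test only through ThymusEC. Only Dsc2 and Dsg2 were measured in both groups. The gap between Dsc1 and Dsg1c, 199 kb, lay just under the chosen distance. On chromosome 14, Gjb2 and Gjb6 lay 24.6 kb apart, and Gja3, 64.1 kb from Gjb2, was above background on no array. Other runs were mixed. On chromosome 5, Cldn13 was measured only in ThymusEC, Cldn4, 30.6 kb away, was 3.79-fold higher in ThymusEC, and Cldn3, a further 41.8 kb away, was not called. On chromosome 17, Cldn6 was higher in ThyroidEC and Cldn9, 1.14 kb away, higher in ThymusEC. On chromosome 4, Gjb5 was higher in ThyroidEC and Gja4 was not called. On chromosome 16, Cldn16, above background on no array, lay beside Cldn1, higher in ThymusEC. In a separate run on that chromosome, Cldn17, above background on no array, lay beside Cldn8, higher in ThyroidEC.

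**Figure D5:**
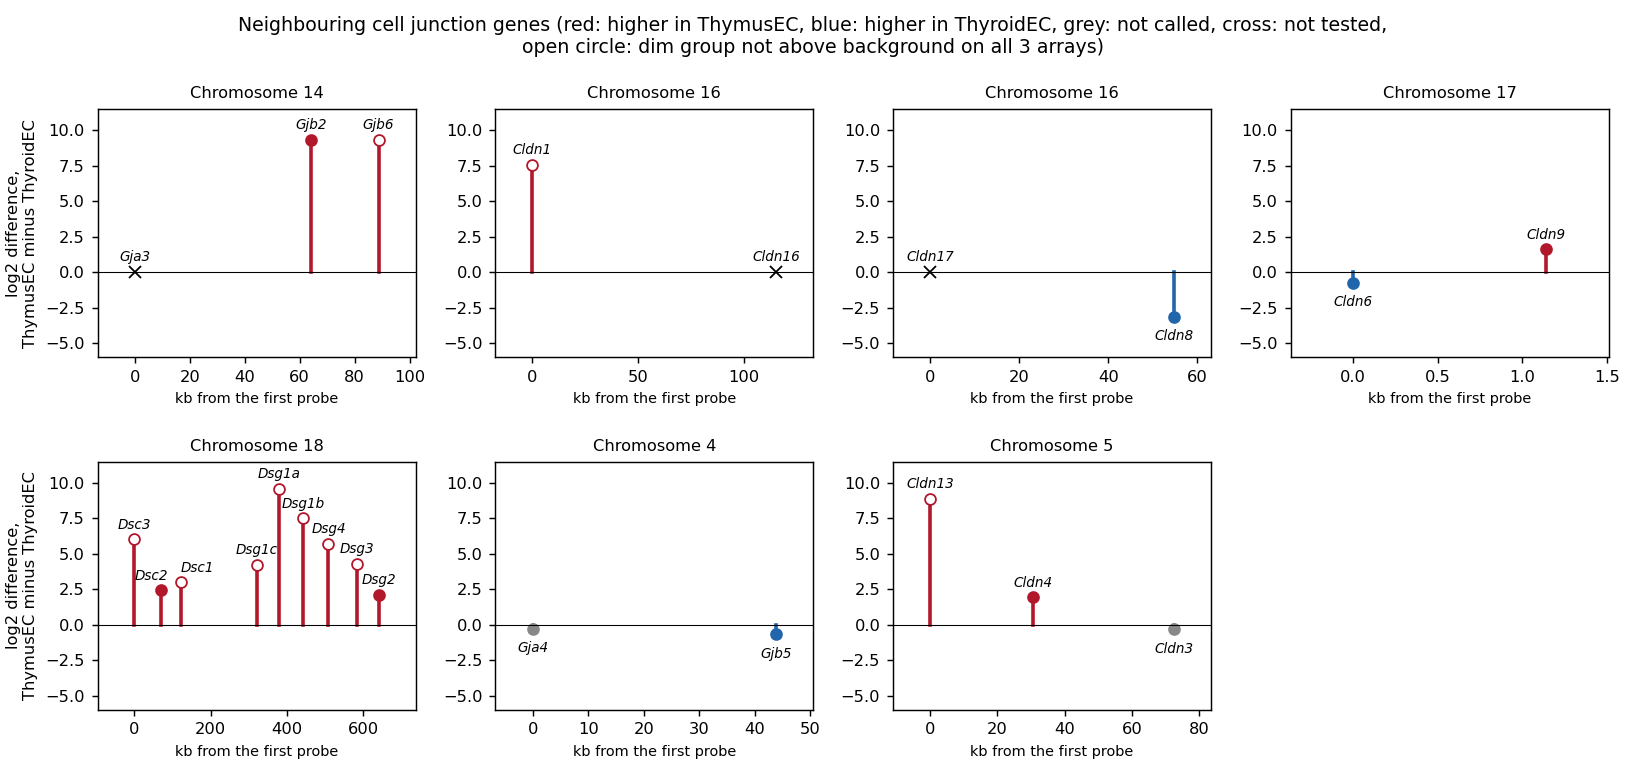
Difference between ThymusEC and ThyroidEC (log2, ThymusEC minus ThyroidEC) against distance in kb from the first probe, for the 7 runs of neighbouring junction genes. All 9 desmosomal cadherins of the chromosome 18 run lie above 0, while the run on chromosome 17 holds genes on both sides of 0. Of these 9 cadherins, 7 were above background on no ThyroidEC array and are drawn as open circles.

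Genes of the adherens junction, the other adhesive belt, went in both directions. Of 20, 11 were higher in ThymusEC, 7 in ThyroidEC and 2 not called, with a median of 1.06. Cdh3, P-cadherin of basal epithelia, and Ctnnd2, a catenin known from neurons, were above background on no ThyroidEC array and were at least 24.2-fold and 53.3-fold higher in ThymusEC. Cdh16, a cadherin known from kidney and thyroid, had -1.55 ± 0.14 in ThymusEC and 6.15 ± 0.17 in ThyroidEC (difference -7.70, limma adjusted p = 2.43e-07), and Cdh4, R-cadherin, differed by -1.51. Cdh1, E-cadherin, had 3.68 ± 0.03 in ThymusEC and 2.72 ± 0.28 in ThyroidEC (difference 0.96, limma adjusted p = 0.00147).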

How the data were processed

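Per the labels' protocols, Trizol was used to extract RNA, which carried the dye Cy3. Arrays were read with Agilent Feature Extraction 10.5.1.1 and probes placed on mm8, per the file headers. In the deposited scanner files each spot has a processed signal, an intensity from which background and spatial trend were removed, per the file headers. The authors also deposited a value table, a linear ratio that equals the processed signal over its array's median.

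Controls and outliers (67 to 151 spots an array) were dropped, and spots of a probe averaged. Log2 signals, less each array's 75th percentile, were fitted in limma 3.58.1 (R 4.3.3), two-sided and without covariates, and Benjamini-Hochberg adjustment ran over all 21378 genes, each with its brightest tested probe. The background flag uses 13 background SDs. P-values measure the spread between pools of animals, and the number of arrays limits the precision. A RefSeq table of GRCm38.p6 named 71 of the 89 probes by accession and 18 by symbol. Values on each array are given for the 4 largest differences per family and direction on all 6 arrays, the 2 largest lower bounds, and 29 genes whatever their values. In lists of other genes, up to 2 per direction and 8 further genes are named. Sox10 and markers above background in 1 group only were singled out after their values were seen. Results for 5 of the 60 genes are counted but not reported here. Genes and lists were chosen with earlier results of these data known.

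The 19 alternatives changed the background correction (normexp, offset 50), the scaling (quantile, median, probes above background everywhere, deposited table), the filter (none, all 6 arrays), the probe (median over probes, misplaced probes left out) or the model (slide block, slide 1 only, replicate block, trended and robust variances), or left out an array. The fit was tested on simulated data. Figures were drawn with matplotlib 3.10.9.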

Additional observations from a re-analysis of the deposited data

How the results depend on the processing

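Of 46 called junction genes, 32 kept their call under every alternative run for them, 14 lost it under at least 1, and in 6 the sign turned. All 7 that were not called passed under at least 1 alternative. A filter on all 6 arrays, which removes by construction genes without thyroid signal, left 13 junction genes higher in ThymusEC (4 claudins, 2 connexins and 5 desmosomal genes), 5013 genes of the whole array, and a median of -0.28 over the junction genes. Other medians were 0.21 with normexp, 0.11 with quantile normalization, 0.15 with median centring and 0.16 with the deposited table. Connexins higher in ThymusEC numbered 3 with normexp and 3 with quantile normalization. With the slide as a block, 11 junction genes, among them 3 connexins, were higher in ThyroidEC, and Cldn3 was at 0.037, as on slide 1 alone (0.037). Over the whole array, 11036 genes were higher in ThyroidEC with median centring and 10962 with the deposited table, against 6547 in the main fit. Signs turned with median centring for Cgn (-0.27), Cldn7 (-0.23), F11r (-0.15) and Ocln (-0.35), and with the deposited table for Cgn (-0.26), Cldn7 (-0.22), F11r (-0.14) and Ocln (-0.34). With quantile normalization they turned for Cldn14 (-0.10), Gjc3 (-0.078) and Ocln (-0.16). Gja10 (-0.66) and Gja6 (-0.83) turned there as well, and both were then called higher in ThyroidEC. Gja6 also turned, without a call, with median centring (-0.014), the deposited table (-0.0045) and normexp (-0.070). The cause was not tested. Leaving out 1 array at a time gave 25 to 30 junction genes higher in ThymusEC and 15 to 18 higher in ThyroidEC. Replicate numbers do not pair the samples: deviations of same-numbered arrays correlated at 0.007, -0.066 and -0.054. With a replicate block, 27 junction genes were higher in ThymusEC and 14 in ThyroidEC. In the main fit 39.2% of all genes were higher in ThymusEC and 30.6% in ThyroidEC. The shares of all genes with normexp, with quantile normalization, with an array left out or with a replicate block are not given. These counts therefore show only how far the calls of junction genes moved. Signal over background limits the genes for which only a lower bound is given.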
